A study of Mus musculus with 6 samples.

Results

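The genes described here encode the proteasome and the proteins that build and regulate it, in villi of newborn mice whose intestine lacked the ion channel TRPM7. They were taken from the array annotation as every probe set with a single gene symbol of the form Psma to Psmg followed by a number, leaving out Psmb8, Psmb9 and Psmb10, and where a gene had several the brightest on average across the 6 arrays stood for it. This gave 47 genes, from 53 probe sets, out of 19938 genes that had a probe set of their own. Not every symbol of this form names a subunit. Psmc3ip encodes a protein of meiotic recombination and Psme3ip1 a nuclear partner of an activator, while Psma8 is the testis form and Psmb11 the thymus form of a subunit.

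The 3 mutant samples were villi of Trpm7 fl/fl;Villin1-Cre pups and the 3 control samples villi of Trpm7 fl/fl littermates without the Cre transgene, all aged 5 days and on a C57BL/6 background according to the labels. The floxed Trpm7 allele was thus carried by all animals. The study's methods list the floxed line under another strain than the C57BL/6J Villin1-Cre line, with which it was crossed. The Villin1 promoter drives Cre in the epithelium of the whole intestine, so other cells of the villus keep the gene, and recombination leaves a frameshift. Villi were separated mechanically and spun down, and total RNA was hybridised to Affymetrix whole-transcript arrays. The arrays are described as 3 littermates of each genotype, and nothing in the labels says whether villi of several pups were pooled in a sample, so the p-values measure the spread between these samples.

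The targeted gene matched the labels. Trpm7 had log2 signals of 8.03, 7.79 and 7.88 in mutant replicates 1, 2 and 3, against 9.11, 8.96 and 9.03 in control replicates 1, 2 and 3, a difference of -1.13 (SE 0.09, adjusted p = 0.00019). Among sex-linked transcripts, those of the Y chromosome did not sort by genotype, and Xist did so in part. The Y-linked genes Eif2s3y, Kdm5d and Uty were clear in mutant replicates 2 and 3 and in control replicates 2 and 3, with mean log2 signals of 7.69 and 7.90 in those mutants and of 7.22 and 7.37 in those controls, whereas mutant replicate 1 stood at 3.83 and control replicate 1 at 4.0. Xist, the transcript of the inactive X chromosome, had log2 signals of 10.18, 4.76 and 5.26 in the mutant arrays, against 10.48, 9.82 and 9.66 in the control arrays, so that Xist and Y-linked transcripts were present side by side in control replicates 2 and 3. Whether these 2 samples hold RNA of more than 1 animal was not tested. Results are therefore also given within the arrays that share Y-linked transcripts, a comparison chosen after the data were seen. Enterocyte markers were strong in all samples, with log2 summed signals of 16.13 to 16.14 in mutant and 16.19 to 16.21 in control villi over 8 genes (2 higher, 2 lower). Markers of proliferating cells were higher in mutant villi for 6 of 7 measured genes, with log2 summed signals of 11.86 to 11.95 in mutant and 10.92 to 11.40 in control villi. Fibroblast markers were higher for 2 of 6 genes (10.99 to 11.37 in mutant, 10.43 to 10.85 in control villi) and neutrophil markers for 2 of 6 (9.20 to 11.21 in mutant, 7.66 to 7.72 in control villi), while all 4 measured goblet cell markers were lower (11.30 to 11.52 in mutant, 13.62 to 13.71 in control villi). The part of these markers in the proteasome result was not tested, and in bulk tissue more cells of a type and more RNA per cell cannot be told apart.

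As background, the 26S proteasome is the large protease that destroys proteins tagged with ubiquitin. Its barrel-shaped 20S core is made of outer rings of alpha subunits, which form the gate, and inner rings of beta subunits, of which PSMB5, PSMB6 and PSMB7 carry the active sites. The 19S regulatory particle caps the core. Its base holds a ring of ATPases that unfold the substrate, and its lid removes the ubiquitin chain. Cells raise subunit genes together when proteasome activity falls short, chiefly through the transcription factor NRF1 (encoded by Nfe2l1), and the related NRF2 (encoded by Nfe2l2) can act on some of them.

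A minority of the proteasome genes rose in mutant villi, by small amounts. Of the 47 genes, 8 rose and none fell at an adjusted p of 0.05 or less in the limma fit over all 30177 probe sets, against 9.39% of all genes called higher and 10.1% called lower. The genes that rose were the lid subunits Psmd7, Psmd11 and Psmd3, the base subunits Psmd2 and Psmc4, the alpha subunit Psma6, the nuclear activator Psme3, and Psmc3ip. Leaving out 1 array cut the count to 2 (without mutant replicate 1), 3 (without mutant replicate 2 or control replicate 3), 4 (without control replicate 2) or 5 (without mutant replicate 3 or control replicate 1), again with none lower. At an unadjusted p under 0.05, 22 of the 47 differed, 21 of them higher in mutant villi. Over all 19938 genes 6408 differed at that threshold, 3141 of them higher. The differences were small: their median was 0.15 on the log2 scale (quartiles 0.04 and 0.27, range -0.24 to 0.65), against 0.00 over all genes, and 39 of 47 lay above 0, compared with 50.7% of all genes. For 23 of the 47 genes every mutant array was above every control array, and for 1 gene, Psme3ip1, every mutant array was below, whereas over all genes these shares were 18.6% and 19%. With each array centred on the median of 6 housekeeping genes, the median of all probe sets shifted to -0.235. The members' median turned to -0.08, with 2 genes called higher and 7 lower. Its distance from the median of all probe sets, 0.15, cannot change, since centring subtracts 1 value from every probe set of an array.

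The upward differences lay mainly in the 31 subunits of the 26S proteasome that have a Psm name. Sem1, a small lid subunit without such a name, is not among them (-0.13, adjusted p = 0.51). Of the 31 subunits 6 rose and none fell (18 with an unadjusted p under 0.05, all higher). In all 29 lay above 0 and the median difference was 0.21, with 19 subunits whose arrays did not overlap, all higher in mutant villi. Among the 3654 genes with a mean log2 signal between 8.55 and 11, the range of these subunits, calls were more frequent than over all genes: 15.8% were called higher and 20.1% lower, 27% and 33.6% had arrays that did not overlap in those directions, and the median difference was -0.03. The share of subunits called higher, 19.4%, was near that background. An unadjusted p under 0.05 was reached by 1928 of these 3654 genes, 837 of them higher. The share above 0 was 93.5% for the subunits and 45.5% for the genes of that signal range. After centring on housekeeping genes the median of the 31 subunits was -0.03, with 2 called higher and 2 lower. It lay 0.20 above that of all probe sets, a distance that such centring cannot change.

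**Figure D1:**
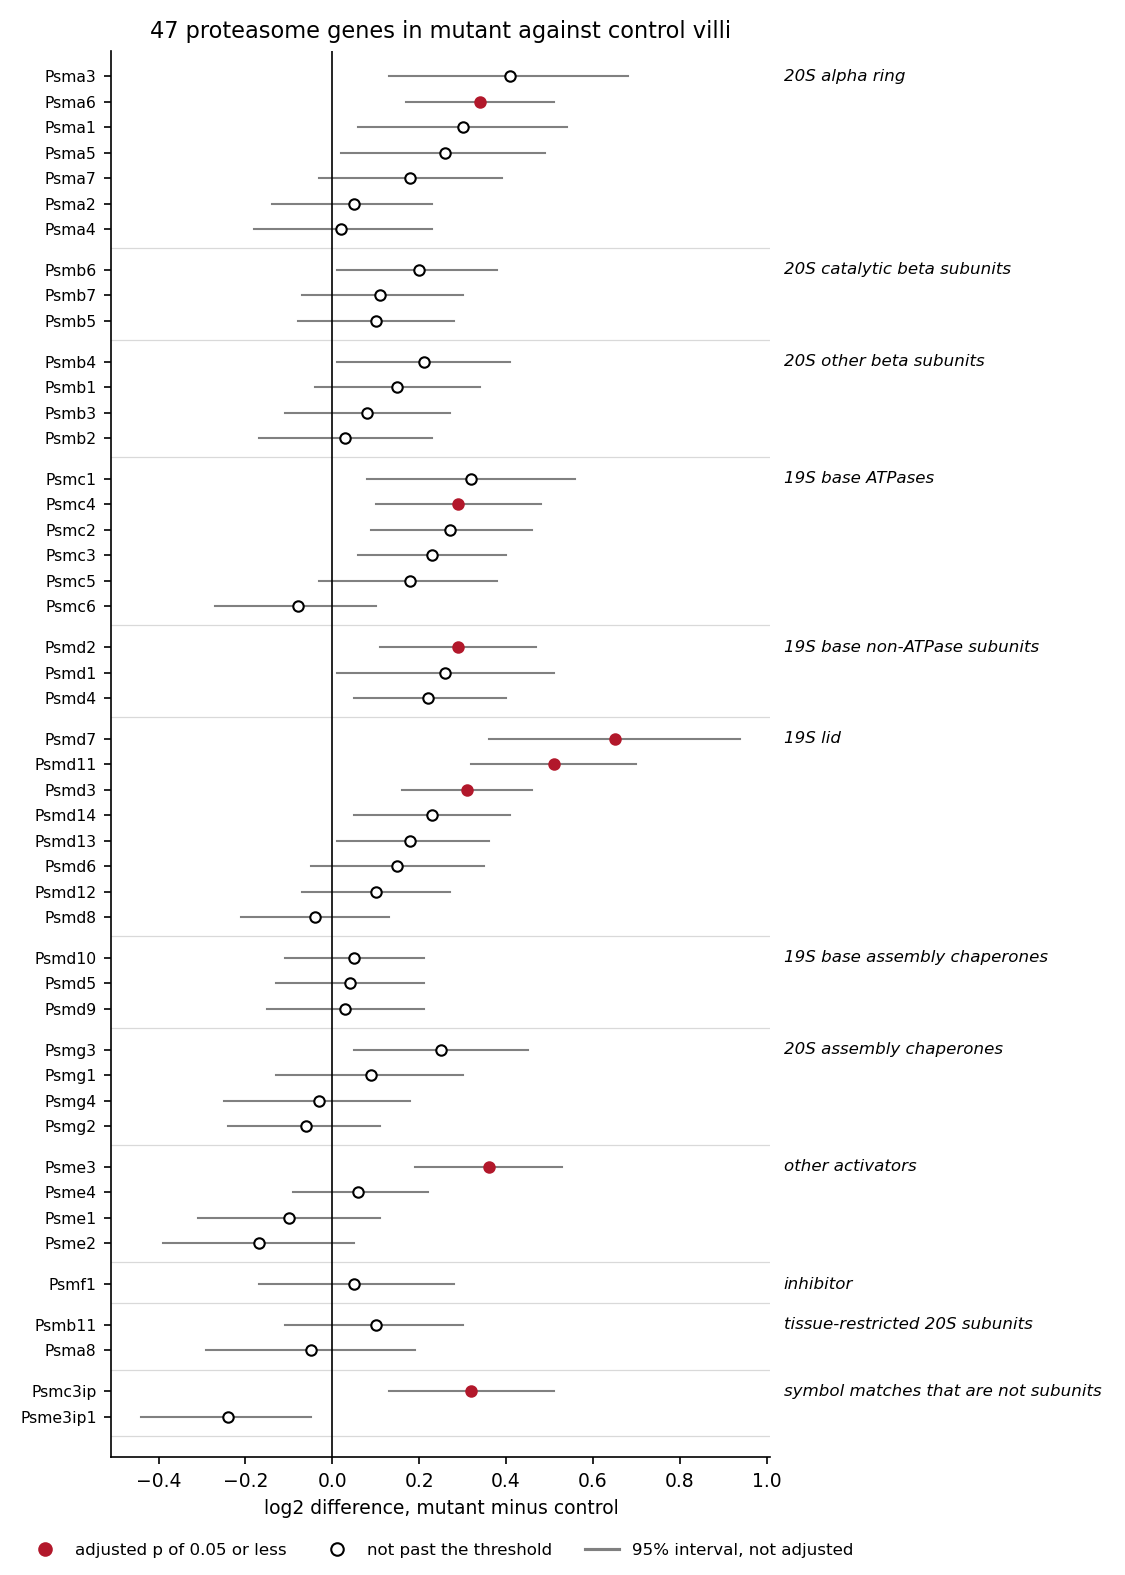
Log2 difference (x axis, mutant minus control) of each of the 47 proteasome genes, grouped by role, with its 95% interval from the limma fit; filled points passed an adjusted p of 0.05. The 8 filled points lie between 0.29 and 0.65, most 20S and 19S subunits lie to the right of 0, and assembly chaperones scatter around 0; with arrays centred on housekeeping genes the whole pattern moves to the left and the median of the 47 becomes -0.08.

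Among the 8 lid subunits with a Psm name, part of the deubiquitinating cap, 3 rose and 7 lay above 0 (median 0.21). Beside the counts of this and the later role groups, 9.39% of all genes were called higher. In the signal range of the 26S subunits 15.8% were. Psmd7, the structural partner of the deubiquitinase PSMD14, had log2 signals of 9.76, 9.63 and 9.33 in mutant replicates 1, 2 and 3, against 8.76, 9.0 and 9.0 in the control replicates. No array overlapped, and the difference of 0.65 (SE 0.13, adjusted p = 0.010), or 1.57-fold, was the largest of all 47 genes. Psmd11, a scaffold subunit that ties the lid to the core, had 10.63, 10.45 and 10.42 in mutant villi, against 9.99, 9.96 and 10.03 in control villi, and was 0.51 higher (SE 0.08, adjusted p = 0.0048). The 3 control arrays of Psmd11 were within 0.1 of each other, and the call held in all 19 alternative analyses that refitted this gene at the same threshold, that of Psmd7 in 18. At 1.42-fold Psmd11 would miss a threshold of 1.5-fold, which Psmd7 passed. Psmd3, another scaffold subunit, had 8.93, 8.92 and 8.93 in mutant and 8.63, 8.62 and 8.61 in control villi, a difference of 0.31 (SE 0.07, adjusted p = 0.016) with almost no spread in either group. It lost the call without mutant replicate 1 (adjusted p = 0.052), mutant replicate 2 (0.052), control replicate 2 (0.058) or control replicate 3 (0.055), with a difference of 0.30 to 0.31. Psmd14, the deubiquitinase itself, differed by 0.23 (adjusted p = 0.080) and Psmd13 by 0.18 (adjusted p = 0.15), in each case without overlap and not past the threshold. Psmd8 was the lowest of these 8 genes, with 9.55, 9.68 and 9.64 in mutant and 9.71, 9.67 and 9.62 in control villi, a difference of -0.04 (adjusted p = 0.75).

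The 19S base held 2 genes that rose. Of its 6 ATPases 1 rose and 5 lay above 0 (median 0.25). Of its 3 other subunits with a Psm name 1 rose and all lay above 0 (median 0.26). Adrm1, a proteasome partner without such a name, was not measured. Psmc4 had log2 signals of 9.32, 9.35 and 9.26 in mutant villi, against 8.90, 9.11 and 9.05 in control villi, and was 0.29 higher (SE 0.08, adjusted p = 0.045). Psmd2, the subunit on which shuttle factors dock, had 10.75, 10.61 and 10.60 in mutant and 10.29, 10.38 and 10.42 in control villi, and was also 0.29 higher (SE 0.08, adjusted p = 0.041). These calls were close to the threshold, and each was lost when any array was left out: the adjusted p of Psmc4 was then 0.12, 0.14 and 0.071 without mutant replicates 1, 2 and 3 and 0.10, 0.063 and 0.098 without control replicates 1, 2 and 3, and that of Psmd2 0.13, 0.085 and 0.062 and 0.099, 0.10 and 0.073 in the same order. The other probe set of Psmd2 gave the same difference of 0.29 (adjusted p = 0.036). The largest difference among the ATPases was that of Psmc1, with 9.81, 9.89 and 9.92 in mutant and 9.34, 9.66 and 9.66 in control villi, at 0.32 (adjusted p = 0.073). Psmc2 reached 0.27 (adjusted p = 0.053) and Psmc3 0.23 (adjusted p = 0.075), also without overlap. Psmc6 alone among the ATPases lay below 0, with 9.43, 9.29 and 9.39 in mutant and 9.35, 9.49 and 9.52 in control villi, a difference of -0.08 (adjusted p = 0.56). Psmd4, a ubiquitin receptor of the base, had 9.27, 9.21 and 9.14 in mutant villi, against 8.92, 9.04 and 8.99 in control villi, and missed the threshold at 0.22 (adjusted p = 0.084) although no array overlapped.

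In the 20S core 1 of 14 subunits rose (7.14%), and all 14 lay above 0. Over all genes 9.39% were called higher and 50.7% lay above 0. The median difference was 0.17, against 0.23 for the 17 subunits of the 19S particle with a Psm name. The difference between these medians was not tested. Psma6, an alpha subunit, had 9.87, 9.88 and 9.80 in mutant villi, against 9.43, 9.58 and 9.52 in control villi, and was 0.34 higher (SE 0.07, adjusted p = 0.018). The call was lost without mutant replicate 1 (adjusted p = 0.059), mutant replicate 2 (0.066) or control replicate 3 (0.054). Psma3 had the largest difference of the alpha ring, with 11.16, 11.27 and 11.18 in mutant and 10.53, 10.91 and 10.95 in control villi, but at 0.41 (SE 0.12) it missed the threshold (adjusted p = 0.052). The other 2 probe sets of Psma3 gave 0.41 (adjusted p = 0.045) and 0.43 (adjusted p = 0.037), so the rule of taking the brightest probe set decided this call. The files give no positions for the probe sets, and whether any of them lies in a near-identical copy of Psma3 was not tested. Psma4, whose tail helps to close the gate, was lowest of the ring, with 10.89, 10.91 and 10.85 in mutant and 10.70, 10.93 and 10.95 in control villi, a difference of 0.02 (adjusted p = 0.89).

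None of the 3 catalytic subunits passed the test. Psmb5, the chymotrypsin-like site, had 8.53, 8.63 and 8.64 in mutant villi, against 8.59, 8.46 and 8.44 in control villi, a difference of 0.10 (95% interval -0.08 to 0.28, adjusted p = 0.44). Psmb6, the caspase-like site, had 10.49, 10.55 and 10.44 in mutant and 10.18, 10.37 and 10.34 in control villi, a difference of 0.20 (interval 0.01 to 0.38, unadjusted p = 0.041, adjusted p = 0.15). Psmb7, the trypsin-like site, had 10.04, 10.08 and 10.04 in mutant and 9.83, 9.93 and 10.06 in control villi, a difference of 0.11 (interval -0.07 to 0.30, adjusted p = 0.41). Only Psmb6 had no overlap between groups, and none of the 3 intervals, which are not adjusted, reached a 1.5-fold difference. The 4 non-catalytic beta subunits differed by 0.03 to 0.21. Psmb4 had 9.63, 9.81 and 9.71 in mutant and 9.39, 9.56 and 9.58 in control villi (adjusted p = 0.16), and Psmb2 had 9.92, 9.81 and 9.68 in mutant and 9.70, 9.78 and 9.84 in control villi (adjusted p = 0.86).

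**Figure D2:**
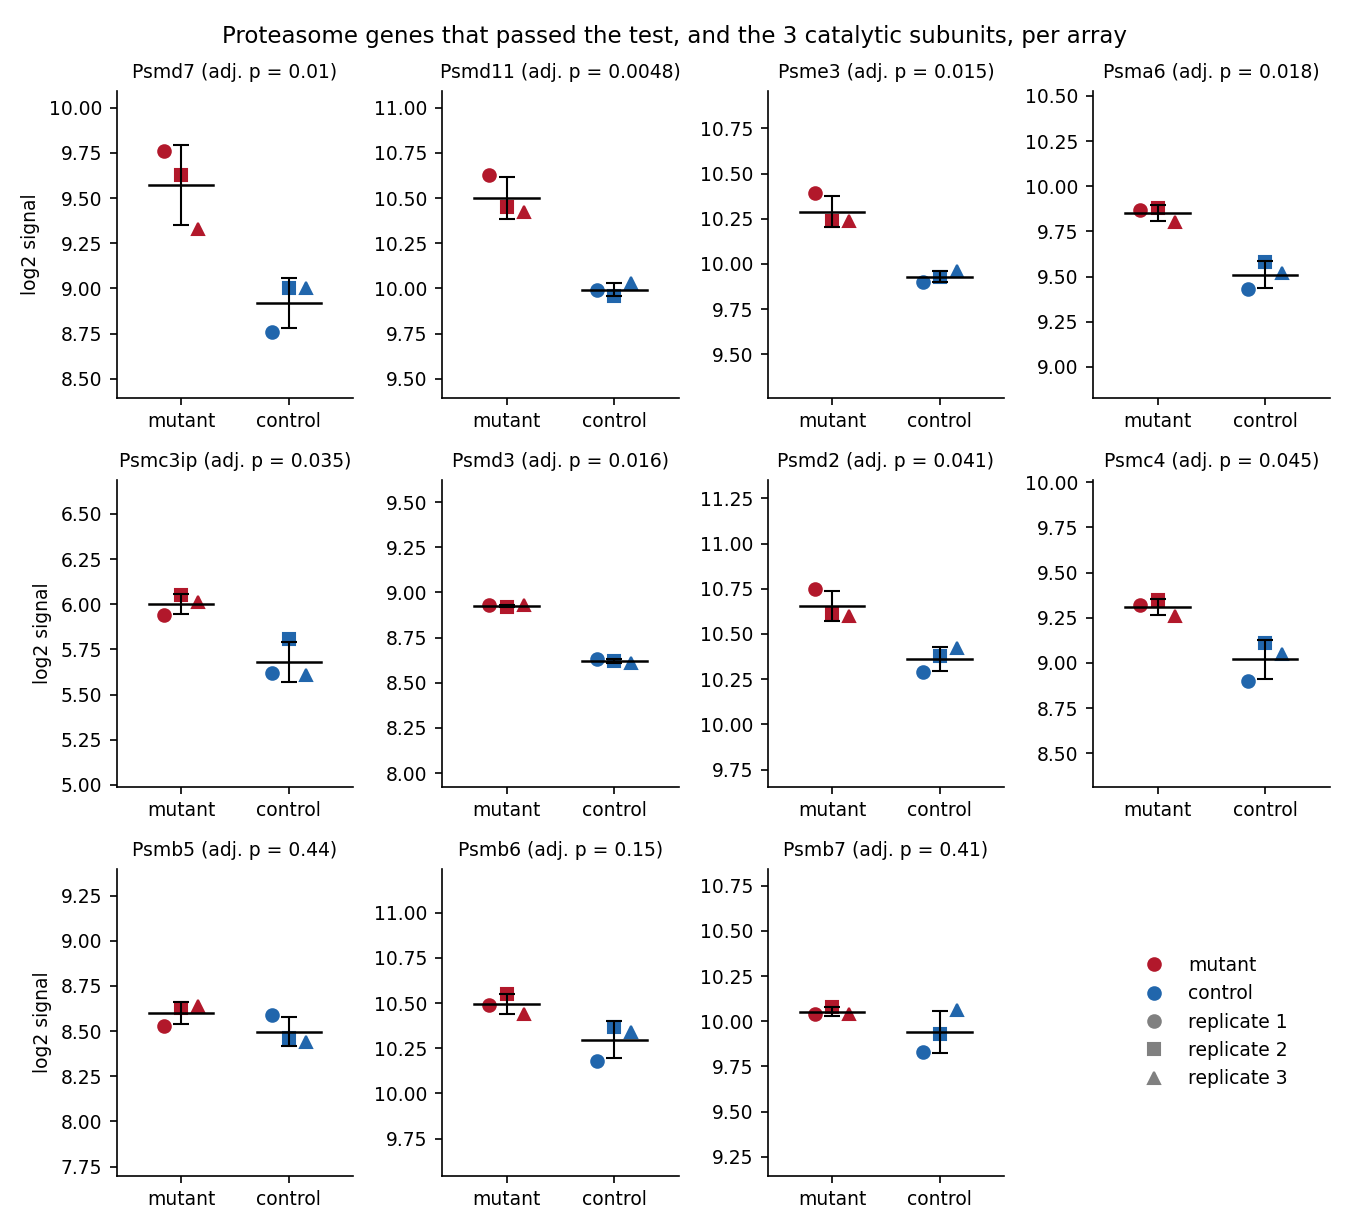
Log2 signal (y axis) of the 8 proteasome genes that passed the test and of the 3 catalytic subunits, with mutant arrays on the left and control arrays on the right of each panel; horizontal lines are means, bars are 1 SD (n = 3 each), and the symbols mark the replicate. Every axis spans the same range, so Psmd7 (0.65) and Psmd11 (0.51) can be seen to separate more widely than Psmb5 (0.10) or Psmb7 (0.11).

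A control array stood low in these genes. Control replicate 1 was the lowest of the 6 arrays for 24 of the 31 subunits of the 26S proteasome and for 29 of all 47 genes, while it was lowest for 18.1% of all genes. Relative to each gene's mean over the 6 arrays, the median of the 31 subunits was 0.10, 0.12 and 0.08 in mutant replicates 1, 2 and 3, against -0.20, -0.06 and -0.04 in control replicates 1, 2 and 3. Without that array 20 of the 31 subunits had arrays that did not overlap with mutant villi higher, 2 with mutant villi lower (24.3% and 24.2% of all genes), the median difference was 0.15 in place of 0.21, and 4 were called higher. Calls fell as well when other arrays were left out, to 2 without mutant replicate 1, mutant replicate 2 or control replicate 3 and to 3 without control replicate 2. Control replicate 1 was also lowest for all 7 measured proliferation markers, where its log2 summed signal of 10.92 compares with 11.40 and 11.39 in the other controls, and for all 6 fibroblast markers (10.43, against 10.85 and 10.78). Its sum over 2 markers of acinar pancreas was 7.67, against 9.39 and 9.57 in the other controls, while the mutant arrays had 9.48, 7.82 and 9.05. The part of these cells in the proteasome values was not tested.

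**Figure D3:**
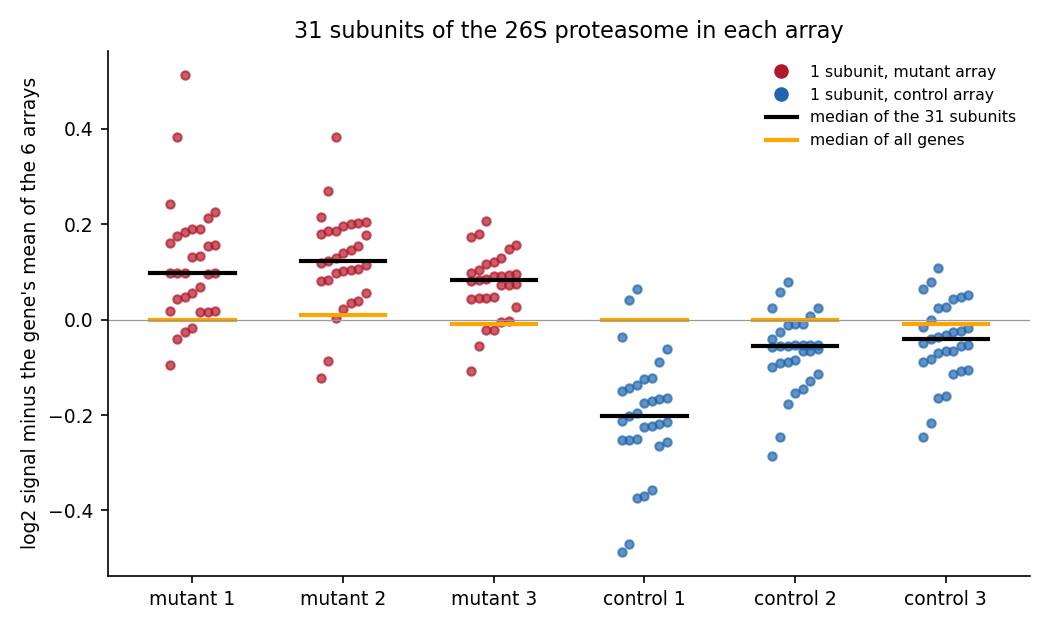
Log2 signal of each of the 31 subunits of the 26S proteasome minus its mean over the 6 arrays (y axis), in each of the 3 mutant and 3 control arrays. Black lines mark the medians, 0.10, 0.12 and 0.08 in the mutant and -0.20, -0.06 and -0.04 in the control arrays, and orange lines the medians of all 19938 genes, which stay near 0.

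Within arrays that share Y-linked transcripts the medians had the same sign, although these arrays differ in Xist, at 4.76 and 5.26 in mutant replicates 2 and 3, against 9.82 and 9.66 in control replicates 2 and 3. Genotype and Xist cannot be told apart among these 4 arrays. Mutant replicates 2 and 3 against control replicates 2 and 3 gave a median difference of 0.17 over the 31 subunits, with 28 above 0, and mutant replicate 1 against control replicate 1, the pair without such transcripts, gave 0.30 with 29 above 0. Over all genes these medians were 0.01 and -0.01. The difference of Psmd7 was 0.48 among the arrays with and 1.00 between the arrays without Y-linked transcripts, and that of Psmd11 0.44 and 0.64. A fit on the 4 arrays with Y-linked transcripts called only Psmd11 (adjusted p = 0.034), and Psmd7 then had an adjusted p of 0.070. With the presence of Y-linked transcripts as a block in all 6 arrays, 10 of the 47 genes were called higher. Of all 30177 probe sets that fit called 2703 higher and 2871 lower.

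Most assembly factors lay close to 0. The 3 chaperones of the 19S base, Psmd5, Psmd9 and Psmd10, differed by 0.03 to 0.05. Psmd10 had 8.69, 8.67 and 8.69 in mutant and 8.59, 8.61 and 8.69 in control villi (adjusted p = 0.67), and Psmd9 had 7.79, 7.89 and 7.94 in mutant and 7.78, 7.92 and 7.84 in control villi (adjusted p = 0.86). Among the 4 chaperones of the 20S core, Psmg3 was highest at 0.25, with 6.09, 6.26 and 6.19 in mutant and 6.02, 5.95 and 5.81 in control villi (unadjusted p = 0.019, adjusted p = 0.088), on a probe set dimmer than the median of the arrays. Psmg2 was lowest at -0.06, with 7.26, 7.27 and 7.41 in mutant and 7.42, 7.36 and 7.35 in control villi (adjusted p = 0.64). A difference between chaperones and subunits was not tested.

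Of the 4 genes for activators that replace the 19S cap, 1 rose. Psme3, which forms a nuclear activator independent of ubiquitin, had 10.39, 10.24 and 10.24 in mutant villi, against 9.90, 9.93 and 9.96 in control villi, and was 0.36 higher (SE 0.08, adjusted p = 0.015). That call was lost without mutant replicate 1 (adjusted p = 0.051) or control replicate 2 (0.053). Psme2, a subunit of the interferon-induced activator, had 9.20, 9.50 and 9.23 in mutant and 9.43, 9.50 and 9.50 in control villi, a difference of -0.17 (adjusted p = 0.30), and its partner Psme1 differed by -0.10 (adjusted p = 0.52). A probe set shared by Psme2 and its copy Psme2b, which the rule leaves out, gave -0.16 (adjusted p = 0.22). Psme4, a nuclear activator, had 9.49, 9.45 and 9.47 in mutant and 9.36, 9.43 and 9.43 in control villi (0.06, adjusted p = 0.60), and the inhibitor Psmf1 had 9.41, 9.24 and 9.07 in mutant and 9.25, 9.17 and 9.14 in control villi (0.05, adjusted p = 0.77).

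The 4 symbol matches outside the intestinal 26S proteasome were mixed. Psmc3ip had 5.94, 6.05 and 6.01 in mutant and 5.62, 5.81 and 5.61 in control villi and passed the test at 0.32 (SE 0.08, adjusted p = 0.035), below the median signal of the arrays; the call was lost without mutant replicate 1 (adjusted p = 0.063), mutant replicate 2 (0.11), mutant replicate 3 (0.082), control replicate 1 (0.087) or control replicate 3 (0.11). Psme3ip1 had 8.13, 7.93 and 8.06 in mutant and 8.25, 8.23 and 8.37 in control villi, the lowest difference of all at -0.24 (adjusted p = 0.091). Psma8 and Psmb11 were dim in every array, with 4.62, 4.80 and 4.84 for Psma8 and 5.22, 5.35 and 5.20 for Psmb11 in mutant villi, against 4.86, 4.93 and 4.63 for Psma8 and 5.30, 5.13 and 5.05 for Psmb11 in control villi, and neither passed the test.

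Promoters of the members were read for 4 short motifs, to show which regulators could have a match near the start site. RefSeq windows on GRCm38.p6, running from 250 bases before to 50 after the start of a transcript, were at hand for 39 of the 47 genes; Psmd7 and Psmd3 had none. The core of the antioxidant response element, which NRF1 and NRF2 bind, was searched as TGACNNNGC on either strand and occurred in 6 of 39 members (15.4%), against 15.2% of the 15563 genes with a window. The CCAAT box CCAAT occurred in 38.5% of members and 41.7% of genes, the GC box GGGCGG in 59.0% and 53.0%, and the heat shock element core GAANNTTC in 5.13% and 7.95%. The shares in members were thus close to those in all genes for each motif, and a match is a run of letters, not a shown binding site. The 6 matches to the antioxidant response element core are printed with their flanks, read on the strand of the match, since they include the catalytic subunits Psmb5 and Psmb6; capitals mark the match.
Psmb5, chr14:54618026-54618050, minus strand: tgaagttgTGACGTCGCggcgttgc
Psmb6, chr11:70525340-70525364, plus strand: aaagagagTGACGGAGCgctttacg
Psmc6, chr14:45329589-45329613, minus strand: gcaatgccTGACTTAGCtactggct
Psmd12, chr11:107479278-107479297, minus strand: ggcaaatgTGACACAGCaga
Psmd9, chr5:123228151-123228175, plus strand: ctagccggTGACCCCGCccacttcc
Psme4, chr11:30771760-30771784, minus strand: tcttctggTGACGCTGCagccgcag
None of these 6 genes passed the test, and their differences ran from -0.08 for Psmc6 to 0.20 for Psmb6.

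Of the genes that rose, the 4 with the largest difference among those holding a match are printed in full, 5′ to 3′ on the gene's strand, with CCAAT and GC boxes on either strand in capitals; none of the 4 holds the antioxidant or the heat shock core in this window. Psma6 has another annotated start with a window without a match, which is not printed.
Psmd11 promoter, chr11:80428365-80428664, plus strand: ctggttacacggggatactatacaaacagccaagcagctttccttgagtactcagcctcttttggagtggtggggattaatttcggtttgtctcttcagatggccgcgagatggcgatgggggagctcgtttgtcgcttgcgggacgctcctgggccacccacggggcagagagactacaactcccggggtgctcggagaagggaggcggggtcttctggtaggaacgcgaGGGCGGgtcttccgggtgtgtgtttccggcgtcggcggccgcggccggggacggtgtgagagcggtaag
Psme3 promoter, chr11:101315963-101316262, plus strand: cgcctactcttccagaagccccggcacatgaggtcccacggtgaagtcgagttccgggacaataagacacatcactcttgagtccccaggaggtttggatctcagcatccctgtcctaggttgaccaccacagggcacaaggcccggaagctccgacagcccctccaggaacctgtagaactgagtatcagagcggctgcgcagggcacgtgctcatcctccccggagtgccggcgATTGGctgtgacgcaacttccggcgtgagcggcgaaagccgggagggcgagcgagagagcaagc
Psma6 promoter, chr12:55383972-55384271, plus strand: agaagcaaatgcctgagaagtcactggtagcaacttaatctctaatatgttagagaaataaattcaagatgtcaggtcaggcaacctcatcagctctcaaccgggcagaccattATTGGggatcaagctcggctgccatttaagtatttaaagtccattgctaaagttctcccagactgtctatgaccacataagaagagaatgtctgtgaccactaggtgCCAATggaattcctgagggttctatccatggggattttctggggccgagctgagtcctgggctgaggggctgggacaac
Psmc3ip promoter, chr11:101095386-101095685, minus strand: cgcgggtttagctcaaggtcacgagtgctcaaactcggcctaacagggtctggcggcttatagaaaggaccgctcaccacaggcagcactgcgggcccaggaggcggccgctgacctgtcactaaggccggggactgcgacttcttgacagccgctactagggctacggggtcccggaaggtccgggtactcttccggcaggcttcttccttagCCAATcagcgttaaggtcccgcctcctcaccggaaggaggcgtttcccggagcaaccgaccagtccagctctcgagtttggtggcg
Psmd11, with a difference of 0.51, thus holds a GC box at position -19 from its start and no CCAAT box, and Psme3, with 0.36, a CCAAT box on the opposite strand at position -14.

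Neighbouring systems were measured to place the subunits. Beside the counts of called genes in these lists, 9.39% of all genes were called higher and 10.1% lower. The immunoproteasome subunits Psmb8, Psmb9 and Psmb10, which replace the catalytic subunits after interferon, were not called and all lay below 0. Psmb8 had 9.32, 9.55 and 8.83 in mutant and 9.61, 9.64 and 9.67 in control villi (-0.41, unadjusted p = 0.039, adjusted p = 0.15), and Psmb9 and Psmb10 differed by -0.15 and -0.17. Mutant replicate 3 was the lowest array for all 3. Of 7 measured interferon-induced genes of antigen processing, 1 was higher and 2 lower. Tap1, the peptide transporter, rose by 0.84 (adjusted p = 0.022), a call lost without control replicate 2 or 3 or mutant replicate 1 or 2 (adjusted p of 0.068 to 0.072), whereas Irf1 (-0.43, adjusted p = 0.0066) and Erap1 (-0.38, adjusted p = 0.010) were lower.

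Proteins that work on the proteasome without being Psm genes included 4 of 10 that rose and none that fell. Usp14, the deubiquitinase bound to the 19S base, had 8.47, 8.42 and 8.29 in mutant and 7.97, 7.91 and 7.99 in control villi (0.44, adjusted p = 0.0074). Akirin2, which brings proteasomes into the nucleus, rose by 0.41 (adjusted p = 0.0090), the proteasome-bound thioredoxin Txnl1 by 0.40 (adjusted p = 0.012) and the arsenite-inducible Zfand2a by 0.82 (adjusted p = 0.0082). These 4 calls held with each array left out. The assembly factor Pomp (0.08, adjusted p = 0.67) and the small lid subunit Sem1 (-0.13, adjusted p = 0.51) were not called.

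Transcripts of NRF1, NRF2 and their inhibitor KEAP1 did not pass the test. Nfe2l1 had 9.31, 9.19 and 9.30 in mutant and 9.17, 9.24 and 9.25 in control villi (0.05, interval -0.12 to 0.22, adjusted p = 0.73), Nfe2l2 differed by -0.02 (adjusted p = 0.89) and Keap1, which holds NRF2 in check, by 0.03 (adjusted p = 0.86). Of 10 measured regulators 1 rose, the small Maf protein Mafk, at 0.57 (adjusted p = 0.0051), and Nfya, a subunit of the factor that binds CCAAT boxes, missed the threshold at -0.30 (unadjusted p = 0.0089, adjusted p = 0.052) with every mutant array below every control array. By comparison 8 of 10 NRF2 target genes rose, with a median difference of 1.70 and values such as 3.32 for Gclc (adjusted p = 0.00040) and 2.66 for Nqo1 (adjusted p = 0.00021). These lists were drawn up with results of these data known and are no independent evidence of direction.

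Systems upstream and alongside the proteasome were listed in the same way; differences between lists were not tested. Of 12 shuttle factors and p97 partners 1 rose, Nploc4 (0.37, adjusted p = 0.012), and p97 itself, Vcp, was at 0.22 (adjusted p = 0.082). None of the 9 subunits of the COP9 signalosome, a relative of the lid, passed the test, and their median was -0.05; Gps1 at -0.21 (adjusted p = 0.13) and Cops8 at -0.16 (adjusted p = 0.17) had unadjusted p-values of 0.032 and 0.048. The TRiC chaperonin, which folds new proteins, had all 8 subunits above 0 with a median of 0.35, and Cct3 (0.54, adjusted p = 0.043), Cct7 (0.46, adjusted p = 0.0099) and Cct2 (0.36, adjusted p = 0.028) rose. Control replicate 1 was the lowest array for all 8 TRiC subunits, as for most proteasome subunits; Cct7 kept its call with each array left out. Cct2 lost it without any array other than control replicate 3 (adjusted p of 0.052 to 0.089) and Cct3 without control replicate 3 or any mutant replicate (0.054 to 0.11). Of 10 autophagy genes Sqstm1, a receptor for ubiquitinated cargo (0.81, adjusted p = 0.018), and Gabarapl1 (0.39, adjusted p = 0.037) rose and Ulk1 (-0.35, adjusted p = 0.027) fell. Sqstm1 lost its call without control replicate 2 or 3 or mutant replicate 2, Gabarapl1 without any array other than mutant replicate 3, and Ulk1 without control replicate 1 or 2 or mutant replicate 2, with an adjusted p of 0.054 to 0.099. Of 6 housekeeping genes 1 rose, Ywhaz (0.29, adjusted p = 0.040), and of the 6 analyses without an array only that without mutant replicate 3 kept the call (adjusted p of 0.070 to 0.12 in the others), and their median was 0.06.

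**Figure D4:**
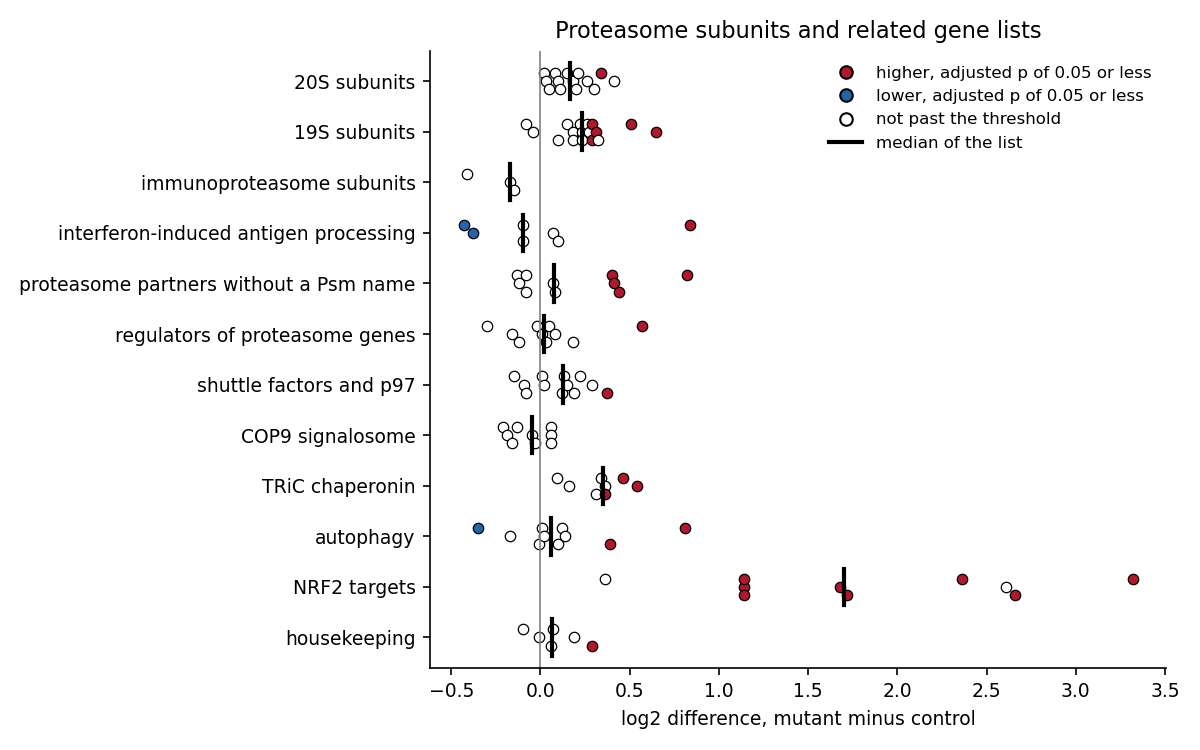
Log2 difference (x axis, mutant minus control) of each Psm gene of the 20S and 19S particles and each measured gene of 10 related lists. The list median is a black line. Red points were called higher, blue points lower and open points neither. Medians are 0.17 and 0.23 for the 20S and 19S subunits, 0.35 for TRiC, -0.05 for the COP9 signalosome and 1.70 for NRF2 targets; centring on housekeeping genes moves all points to the left, as it moved the median of all probe sets to -0.235.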

How the data were processed

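3 mutant and 3 control villi samples were profiled on 1-colour Affymetrix arrays from 100 ng total RNA each. The deposited log2 signals, which give 1 value for each probe set in each array, had been normalized by the authors (array medians of 6.24 to 6.30); how background was corrected and probes were summarised is not stated in the sources used. Probe sets were named through GEO's platform annotation: of 30177, 21789 had 1 symbol, 1621 several and 6767 none. No low-value filter was applied. Differences were tested with limma 3.58.1 in R 4.3.3 (lmFit and eBayes, two-sided, Benjamini-Hochberg over all probe sets), and a gene was called at an adjusted p of 0.05 or less, which gave 2427 probe sets higher and 2661 lower. Limma's intervals (95%) are not adjusted. The number of arrays limits the precision. On simulated data with the spread of these arrays, 200 of 30177 probe sets were changed. The fit called 6.0% of those changed 1.25-fold, 42% at 1.5-fold, 86% at 2-fold and 98% at 3-fold. Far more probe sets were called in the data. The adjusted threshold was thus less strict there, and these rates do not give the power of the main fit. Per-array values were given for called genes, the catalytic subunits and the extremes of each role group, and up to 4 called genes of other lists. The members, role groups and related lists were chosen with earlier results of these data known; the 31 subunits of the 26S proteasome were grouped after the data were seen. Sex was not given in the labels. Alternatives covered normalization, low values, variance model, array weights, probe set choice and thresholds. They also covered the replicate number as a block, control replicates 2 and 3 averaged, and each array left out. Control replicates 2 and 3 held the same value at 3.5% of probe sets, the most of any pair, and mutant replicates 1 and 2 were next at 2.46%. Whether control replicates 2 and 3 are independent samples was not tested.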

Additional observations from a re-analysis of the deposited data

How the results depend on the processing

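Psmd7 (0.42 to 0.78) and Psmd11 (0.27 to 0.55) stayed higher in mutant villi in each of their 19 alternatives, and Trpm7 stayed lower. Counts of called genes depended on the settings. With each array centred on its median 5 members were called higher and 1 lower, and with probe sets under the median left out 13 and 1, the lower gene being Psme3ip1 both times; the setting without dim probe sets called 12 subunits of the 26S proteasome higher, and an offset of 32 on the linear scale 10. Centring on the housekeeping list gave 2 higher and 7 lower members with a median of -0.08, 2 higher and 2 lower 26S subunits with a median of -0.03, and 1203 probe sets higher and 12395 lower. It also turned Keap1 (-0.21), Ubqln1 (-0.23), Ubxn1 (-0.22) and Atg7 (-0.22) to calls lower in mutant villi; that setting subtracts what Ppia and Ywhaz gained, since they lie in the middle of the 6 genes. The share of calls that were higher was 47.7% as reported, 36.6% with median centring and 8.85% with housekeeping centring. The 4 arrays with Y-linked transcripts alone called 1 member and 1 of the 26S subunits higher, and 1497 probe sets higher and 1604 lower. Requiring a 1.5-fold change left 1 member, Psmd7, and 1072 probe sets higher and 1031 lower; testing against a 1.1-fold change left 2, and 1370 and 1500. Leaving out each array in turn called 2 to 5 members, 2 to 4 of the 26S subunits, 1561 to 2037 probe sets higher and 1688 to 2348 lower, with member medians of 0.12 to 0.20 and 26S medians of 0.15 to 0.23. Deviations of same-numbered arrays correlated at 0.17, 0.04 and 0.12, and those of differently numbered arrays at -0.16 to 0.09. The presence of Y-linked transcripts also matched by number. Whether the numbers pair the samples was not tested, and the main fit did not pair them. With the number as a block 7 members were called higher, and 2381 probe sets higher and 2576 lower. With control replicates 2 and 3 averaged into 1 array, 6 members and 4 of the 26S subunits were called higher, and 1742 probe sets higher and 1844 lower. Causes of these changes were not tested.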
